A study of Rattus norvegicus with 20 samples.

Results

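Paracrine growth factors are proteins that a cell releases to act on its neighbours, and 5 genes of this kind were followed in rat mesenchymal stromal cells (MSCs): Vegfa (ENSRNOG00000019598), Igf1 (ENSRNOG00000004517), Hgf (ENSRNOG00000007027), Fgf2 (ENSRNOG00000017392) and Tgfb1 (ENSRNOG00000020652). They were chosen by their Ensembl identifiers, and all 5 of 5 were present among the 30560 genes of the count table and among the 14034 genes that passed the filter on low counts. Hgf passed that filter only through libraries sampled at 1 week. The MSCs came from bone marrow of female Wistar rats and were selected with CD54 and CD90 beads after an initial expansion passage on the same surfaces, each batch from a single rat. They were grown on gelatin-coated silicone of 2 kPa, called soft, or 100 kPa, called stiff, with 1 passage per week. Groups 1w2, 3w2 and 5w2 were kept on the soft surface for 1, 3 and 5 weeks, and 1w100, 3w100 and 5w100 were kept on the stiff surface for the same times. Group 3w2→2w100 spent 3 weeks on soft and then 2 weeks on stiff, and 3w100→2w2 made the reverse switch. The 1- and 3-week groups held 3 RNA-seq libraries each and the 4 groups sampled at 5 weeks held 2 each, 20 in all. All were cultured in the same medium, α-MEM with fetal bovine serum.

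Igf1 encodes insulin-like growth factor 1, a survival and growth signal that stromal cells release and that acts through a receptor tyrosine kinase. Hgf encodes hepatocyte growth factor, the ligand of the MET receptor, which MSCs are known for releasing onto epithelium and which is regarded as antifibrotic. Fgf2 encodes basic fibroblast growth factor, a mitogen for fibroblasts and MSCs. Vegfa encodes vascular endothelial growth factor A, which drives vessel growth and responds to low oxygen. Tgfb1 encodes transforming growth factor beta 1, which is released in a latent form and drives fibroblasts to become contractile myofibroblasts.

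Promoter sequence is shown for the 3 genes with a called difference, Igf1, Fgf2 and Tgfb1, so that their start regions can be read beside the values. RefSeq windows in the GRCr8 build are 300 bases long and reach from upstream of the listed start to just past it. All 5 genes matched a window by symbol, and Vegfa matched 2 windows. The counts were made on another build, mRatBN7.2, and do not show which start was used. Both strands were searched for 6 short motifs. These were CATTCC, which TEAD factors bind, GATAA, which is bound by the family of GATA6, and TTTAC, which posterior HOX factors bind. The others were TGANTCA, which is bound by AP-1, ACGTG, which is bound by hypoxia-inducible factors, and the core promoter element TATAAA. Capitals mark every match.
Igf1, chr7:24172282-24172581, + strand: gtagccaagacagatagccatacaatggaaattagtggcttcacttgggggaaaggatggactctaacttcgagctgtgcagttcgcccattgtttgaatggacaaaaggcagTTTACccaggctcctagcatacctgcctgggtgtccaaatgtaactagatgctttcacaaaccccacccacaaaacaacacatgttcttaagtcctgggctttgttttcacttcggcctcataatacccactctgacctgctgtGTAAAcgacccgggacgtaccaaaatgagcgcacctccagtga
Fgf2, chr2:122164204-122164503, + strand: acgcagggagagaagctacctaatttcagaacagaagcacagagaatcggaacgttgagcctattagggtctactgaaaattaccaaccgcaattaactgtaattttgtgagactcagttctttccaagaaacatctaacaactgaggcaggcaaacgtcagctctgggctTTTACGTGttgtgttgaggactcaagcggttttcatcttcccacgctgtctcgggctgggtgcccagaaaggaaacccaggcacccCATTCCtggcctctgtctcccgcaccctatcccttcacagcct
Tgfb1, chr1:90324062-90324361, + strand: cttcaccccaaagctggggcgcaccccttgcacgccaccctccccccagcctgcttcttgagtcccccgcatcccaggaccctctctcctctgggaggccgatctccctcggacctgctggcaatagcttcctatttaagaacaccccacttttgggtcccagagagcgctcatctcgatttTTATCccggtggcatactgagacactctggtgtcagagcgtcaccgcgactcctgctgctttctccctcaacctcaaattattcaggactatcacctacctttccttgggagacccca
The Igf1 window held TTTAC on each strand, and 33.4% of the 33469 windows of that length in the table held it at least once. The Fgf2 window held TTTAC overlapping ACGTG, which 19.3% of all windows held, and CATTCC just after the start, which 14.2% held. The Tgfb1 window held 1 match, GATAA on the reverse strand, which 26.5% of all windows held. TGANTCA, in 7.33% of windows, and TATAAA, in 14.2%, were not found in these 3 windows. The matches are letters in a window and not evidence of binding.

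Levels are given as CPM, counts relative to the library's total, scaled between libraries with edgeR's TMM factors, and as mean ± SD over the libraries of a group. Library totals ran from 16127907 to 24139128 counts. CPM is not corrected for gene length, so the levels of different genes were not compared. Genes were called at a Benjamini-Hochberg adjusted p below 0.05 in edgeR's quasi-likelihood test, fitted over all 14034 genes and 20 libraries. Statements that groups do or do not overlap are descriptions. With so few libraries per group, groups often fail to overlap by chance, and the share of all genes that did so is not given here. In RNA from whole cultures, fewer cells that express a gene and less of its RNA per cell cannot be told apart. The plot of levels shows the 5 patterns side by side.

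**Figure D1:**
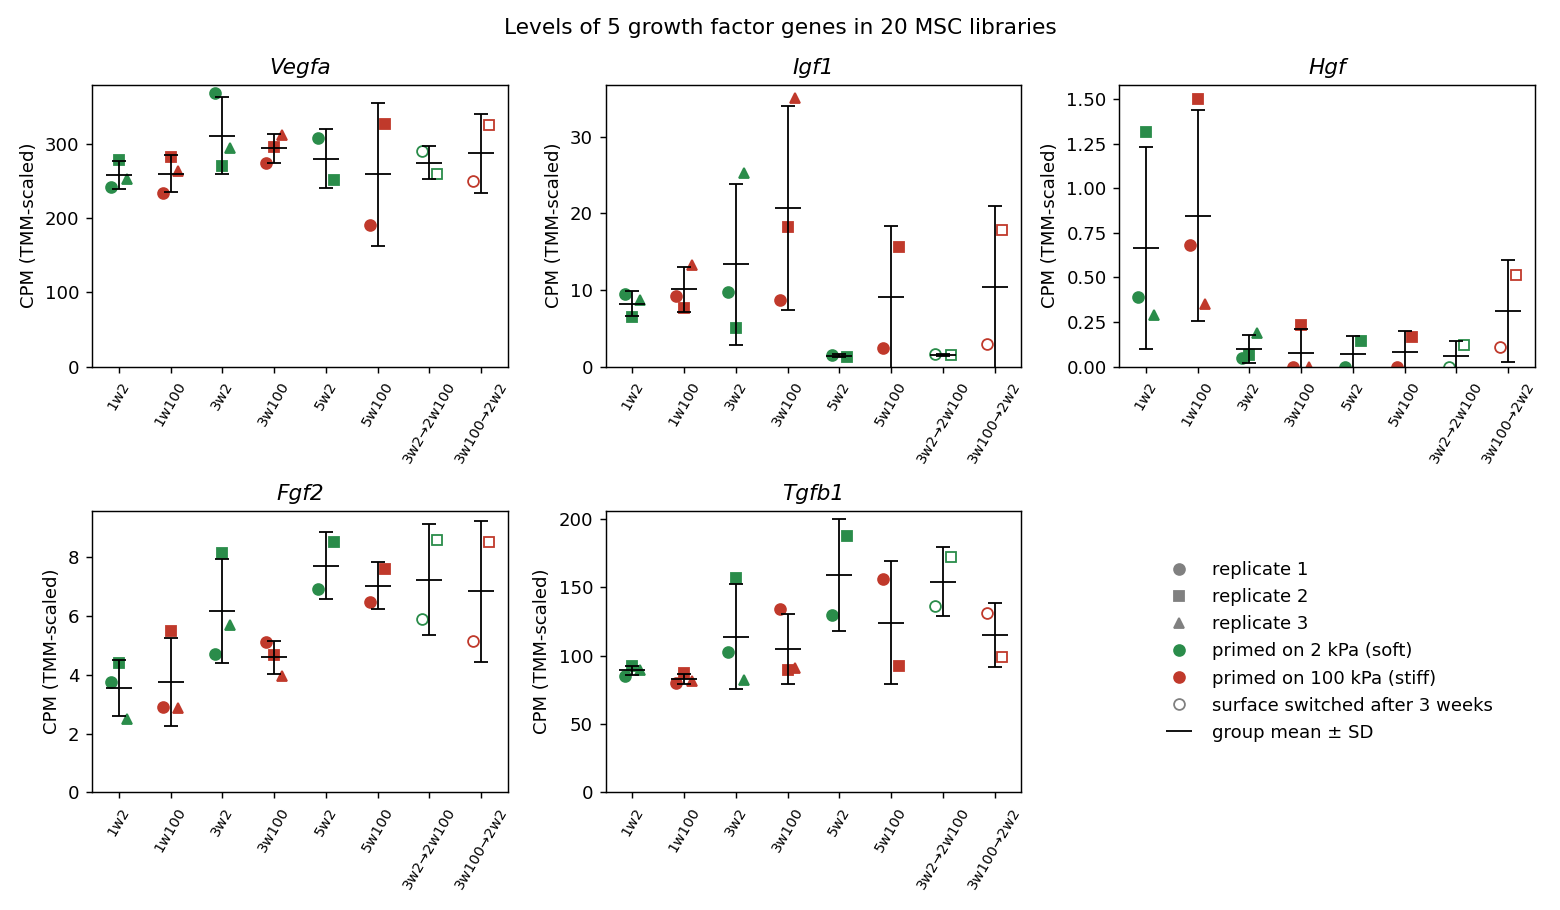
CPM of each gene (y axes start at 0) in each library of the 8 groups (x axes), with bars for the group mean ± SD. Bars whose lower end would pass below 0 are cut off at 0. Igf1 was at 1.25 to 1.58 CPM in the 4 soft-primed libraries at 5 weeks, while the stiff-primed libraries of replicate 2 stood at 15.7 and 17.9, and Hgf was highest in the 1-week libraries.

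Igf1 had the widest span of log2 CPM over the 20 libraries among the members above the detection limit. It was present at every time and surface, and was lowest at 5 weeks in cells primed on soft, whether they had remained on soft or spent the last 2 weeks on stiff. In the 1w2 libraries it was at 9.49, 6.40 and 8.73 CPM, and in 1w100 at 9.26, 7.67 and 13.3. At 3 weeks it was at 9.75, 5.06 and 25.2 CPM in 3w2 and at 8.72, 18.2 and 35.0 in 3w100. At both times the surfaces overlapped. At 5 weeks it was at 1.55 and 1.25 CPM in 5w2, which are counts of 36 and 26. In 5w100 it was at 2.46 and 15.7 CPM, which are counts of 43 and 286. The switched libraries stood with the surface on which they had been primed. Igf1 was at 1.58 and 1.45 CPM in 3w2→2w100 and at 2.92 and 17.9 CPM in 3w100→2w2.

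The 4 libraries primed on soft and sampled at 5 weeks all lay below the 4 primed on stiff, at 1.46 ± 0.151 against 9.73 ± 8.17 CPM. Igf1 was lower after soft priming by a log2 fold change of -2.73 (SE 0.70, 95% interval -4.22 to -1.24, edgeR adjusted p = 0.0246), a 6.63-fold difference. It was the only 1 of the 5 genes called by this comparison, which called 9.75% of all tested genes. The current surface of the same 8 libraries gave a log2 difference of 0.04 (SE 0.69, 95% interval -1.43 to 1.51, edgeR adjusted p = 1.00), soft minus stiff. By current surface both edgeR and DESeq2 called 0 of 5 genes, and edgeR called 0% of all tested genes. None of the 5 and 0.812% of all genes had an unadjusted p below 0.05.

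The size of the Igf1 difference depended on the replicate number. In replicate 2, Igf1 was 12.6-fold higher in 5w100 than in 5w2 and 12.3-fold higher in 3w100→2w2 than in 3w2→2w100. In replicate 1 the same ratios were 1.58 and 1.85. At 3 weeks the ratio of 3w100 to 3w2 was 3.61 in replicate 2, 0.895 in replicate 1 and 1.39 in replicate 3. At 1 week the ratio of 1w100 to 1w2 was 1.20 in replicate 2, 0.975 in replicate 1 and 1.52 in replicate 3. Without 5w100 replicate 2 the priming difference was -1.79 (edgeR adjusted p = 0.204), and without 3w100→2w2 replicate 2 it was -1.82 (adjusted p = 0.190). The call was kept in 2 of the 8 fits that each left out 1 library, those without replicate 1 of 5w100 or of 3w100→2w2. The call was also lost without 5w2 replicate 1, 5w2 replicate 2, 3w2→2w100 replicate 1 or 3w2→2w100 replicate 2. There the log2 fold change was -2.81, -2.65, -2.76 and -2.70, in that order, near the -2.73 of the main fit. The share of all genes called in the fits without 1 library is not given here. Adjusted p ran from 0.000231 to 0.560 over all 15 alternatives, with the same direction in 15. It was 0.560 when the 2 libraries of 1 number and priming surface, which may derive from 1 priming culture, were summed. That fit called 0% of all tested genes. Over all genes, the deviations of such same-numbered libraries from their group means correlated at r = 0.760 after soft and 0.802 after stiff priming. The 4 libraries of a priming surface may therefore not be 4 independent cultures.

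**Figure D2:**
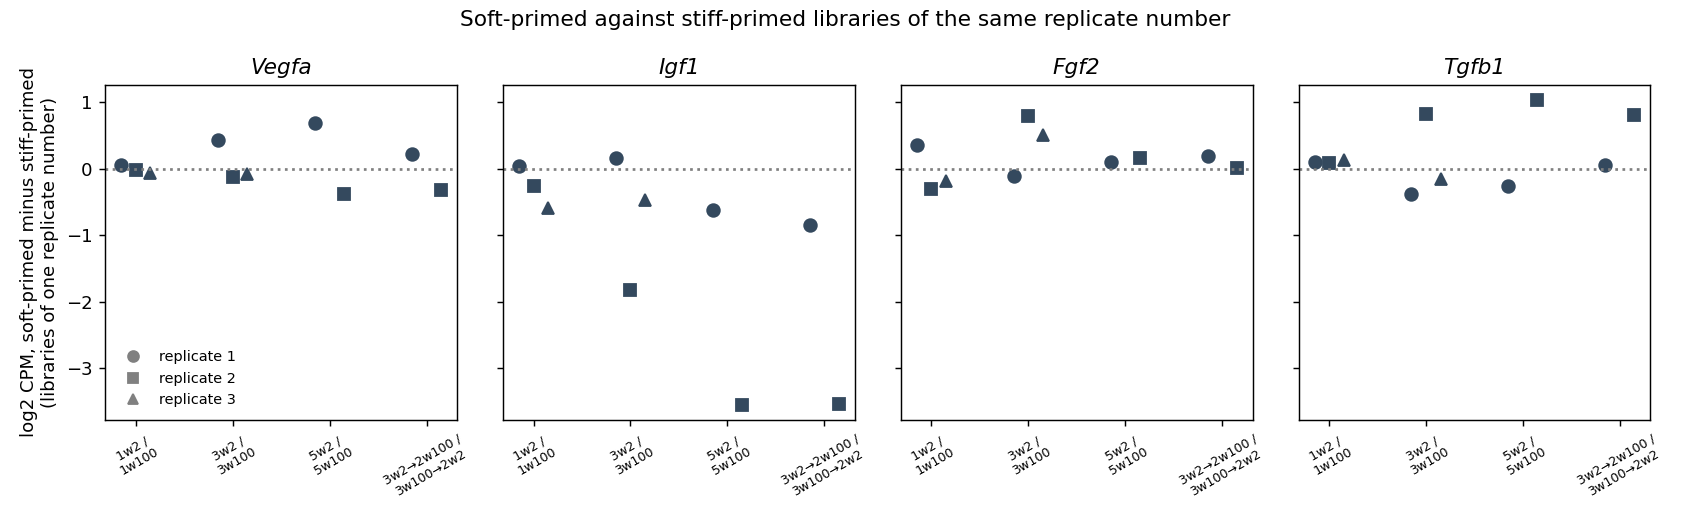
Log2 CPM of the soft-primed minus the stiff-primed library of the same replicate number (y axis) for 4 genes at 1, 3 and 5 weeks and after the surface switch (x axis). Points below 0 are lower after soft priming. Igf1 in replicate 2 lies at -1.83 at 3 weeks and at -3.55 and -3.53 at 5 weeks. In replicate 1 it lies at 0.16 at 3 weeks and at -0.63 and -0.85 at 5 weeks.

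The single comparisons behind the priming result did not pass the edgeR test for Igf1. Between 5w2 and 5w100, whose libraries did not overlap, the log2 fold change was -2.69 (SE 0.98, edgeR adjusted p = 0.202), and DESeq2 gave an adjusted p of 0.0426 within a range of 0.0426 to 0.963 over 10 alternatives. Between 3w100→2w2 and 5w2 it was 2.88 (SE 0.98, edgeR adjusted p = 0.197, and 0.0310 to 1.00 over 10 alternatives, the lowest from DESeq2). Between 3w2→2w100 and 5w100 it was -2.58 (SE 0.99, edgeR adjusted p = 0.258). In each of these comparisons 0 of 5 genes were called by edgeR and only Igf1 reached an unadjusted p below 0.05. Over all tested genes 15.4%, 13.5% and 14.1% reached it, in the order above. Under DESeq2 Igf1 was called in the first and second of these comparisons, and no member in the third. Between 5w2 and 5w100 edgeR called 0.264% of all tested genes and DESeq2 4.04%. Between 3w100→2w2 and 5w2 the shares were 0.178% and 3.04%, and for 3w2→2w100 against 5w100 they were 0.057% and 3.11%. Replicate 2 carried most of these differences. Without 5w100 replicate 2 the first was -0.81 (edgeR adjusted p = 0.963) and the third -0.70 (1.00), and without 3w100→2w2 replicate 2 the second was 1.06 (1.00).

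Against the group that had shared its priming surface, neither switched group showed a called difference in any of the 5 genes. For the group switched to stiff against 5w2, and for the group switched to soft against 5w100, edgeR and DESeq2 each called 0 of 5 genes. In both, 0 of 5 had an unadjusted p below 0.05, and edgeR and DESeq2 called 0% of all tested genes. Of all genes 0.371% and 0.62% had such an unadjusted p. For Igf1 the 95% intervals of the log2 differences were wide in this fit without a replicate block, -2.13 to 2.35 and -1.67 to 2.06. Between libraries of the same replicate number, Igf1 in 3w2→2w100 was 1.01-fold (replicate 1) and 1.17-fold (replicate 2) that in 5w2. In 3w100→2w2 it was 1.19-fold and 1.14-fold that in 5w100.

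Over time on the soft surface, Igf1 went from 8.21 ± 1.61 CPM at 1 week to 13.3 ± 10.5 at 3 weeks and 1.40 ± 0.218 at 5 weeks. The 5w2 libraries lay below every 1w2 and 3w2 library. Neither difference passed the edgeR test: 5w2 against 1w2 gave -2.54 (SE 0.93, edgeR adjusted p = 0.0803, and 0.0100 to 0.279 over 11 alternatives), and 5w2 against 3w2 gave -3.25 (SE 0.95, edgeR adjusted p = 0.361, and 0.00998 to 0.914 over 11 alternatives). The lowest value of both ranges came from DESeq2. On the stiff surface the means were 10.1 ± 2.88, 20.7 ± 13.3 and 9.06 ± 9.33 CPM at 1, 3 and 5 weeks, and 5w100 against 3w100 gave -1.18 (SE 0.82, edgeR adjusted p = 0.852). Whether the effect of stiffness itself changed with time was tested as an interaction. For Igf1 the stiffness effect at 5 weeks minus that at 1 week was -2.39 (SE 1.20, edgeR adjusted p = 0.736), and without 5w100 replicate 2 it was -0.52. In none of the 3 interactions of time and stiffness did edgeR or DESeq2 call any of the 5 genes. None of the 5 had an unadjusted p below 0.05. Of all genes 1.58% had one at 3 against 1 week, 7% at 5 against 1 and 2.88% at 5 against 3. Over all tested genes edgeR called 0% in each, and DESeq2 called 0.218% in that of 5 weeks against 1 week and 0% in the others.

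In order of mean level, Igf1 ran through 5w2, 3w2→2w100, 1w2, 5w100, 1w100, 3w100→2w2, 3w2 and 3w100. Only between 3w2→2w100 and 1w2 did neighbours in this order not overlap.

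Hgf was detected mainly in the 1-week libraries, at the limit of this depth. Its counts were 8, 23 and 5 in 1w2 and 15, 29 and 7 in 1w100. In the 14 later libraries it had 0 to 9 counts, and 5 of the 14 had 0, which allows up to 0.126 to 0.175 CPM in those libraries for counting error only. Summed over a group, Hgf was at 0.652 CPM in 1w2 (exact Poisson 95% interval 0.456 to 0.902) and 0.833 in 1w100 (0.620 to 1.10). At 3 weeks it was at 0.103 CPM in 3w2 (0.0376 to 0.223) and 0.0666 in 3w100 (0.0182 to 0.171). At 5 weeks 5w2 and 5w100 had 3 counts each, 3w2→2w100 had 2, and 3w100→2w2 had 11, of which 9 came from replicate 2. The summed level was 6.36-fold higher in 1w2 than in 3w2 (95% counting interval 2.65 to 18.5) and 12.5-fold higher in 1w100 than in 3w100 (4.60 to 47.6). It was 9.57-fold higher in 1w2 than in 5w2 (3.02 to 48.6) and 9.93-fold higher in 1w100 than in 5w100 (3.21 to 49.7). These intervals do not include the spread between cultures.

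With that spread, no Hgf difference passed the edgeR test, although no 3-week library reached the lowest 1-week library of its surface. Hgf passed the filter on low counts only through 1-week libraries, where it was high, since no later library exceeded 9 counts. The tests of later against 1-week groups are therefore a description of Hgf and not separate support for its fall. The fitted log2 fold change from 1 to 3 weeks was -2.63 on soft (SE 1.13, edgeR adjusted p = 0.181) and -3.49 on stiff (SE 1.17, edgeR adjusted p = 0.0838). When the replicate number was added as a block, the stiff difference had an edgeR adjusted p of 0.00983, the lowest of 10 alternatives that reached 0.237. From 1 to 5 weeks the fitted values were -3.14 on soft (SE 1.36, edgeR adjusted p = 0.136) and -3.24 on stiff (SE 1.35, edgeR adjusted p = 0.115). With the block these had adjusted p of 0.0221 and 0.0136, the lowest of their ranges, which reached 0.477 over 9 alternatives and 0.361 over 11. In both 1-week groups replicate 2 was the highest library. At these counts the fitted size moved with single libraries. From 1 to 3 weeks it ran from -1.69 without 1w2 replicate 2 to -3.47 without 3w2 replicate 3 on soft, and from -2.80 without 1w100 replicate 2 to -7.04 without 3w100 replicate 2 on stiff. From 1 to 5 weeks it ran from -2.15 without 5w2 replicate 1 to -6.67 without 5w2 replicate 2 on soft, and from -2.31 without 5w100 replicate 1 to -7.04 without 5w100 replicate 2 on stiff. The values beyond -6 were fitted against libraries that were all at 0 and depend on the default prior count of edgeR's fit. The prior count of 2 was used for log2 CPM only. The block called 13.3% of all tested genes from 1 to 3 weeks on stiff, and 18.4% on soft and 22.4% on stiff from 1 to 5 weeks.

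Fgf2 rose with time on the soft surface, and on stiff its means went the same way without passing the test. It was at 3.75, 4.40 and 2.50 CPM in 1w2, at 4.71, 8.13 and 5.69 in 3w2, and at 6.91 and 8.53 in 5w2. Every 3w2 and 5w2 library lay above every 1w2 library. From 1 to 5 weeks on soft Fgf2 rose by a log2 fold change of 1.12 (SE 0.33, edgeR adjusted p = 0.0350), which is 2.17-fold. Leaving out each library in turn kept this call in 1 of 5 fits, the one without 1w2 replicate 2, and adjusted p ran from 0.0340 to 0.184 in these 5 fits. It was lost without 1w2 replicate 1 (0.0797), 1w2 replicate 3 (0.102), 5w2 replicate 1 (0.0835) and 5w2 replicate 2 (0.184). It was also lost in a fit of only the groups compared (0.0764), and in that fit with a replicate block (0.0963).

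The part of the Fgf2 difference between 1 and 3 weeks on soft was 0.79 (SE 0.31, edgeR adjusted p = 0.134, and 0.0197 with the replicate number as a block, within 0.0197 to 0.423 over 12 alternatives). That block called 12.8% of all tested genes. On stiff Fgf2 was at 2.92, 5.49 and 2.85 CPM in 1w100, at 5.12, 4.68 and 3.98 in 3w100, and at 6.47 and 7.61 in 5w100. From 1 to 5 weeks the stiff difference was 0.91 (SE 0.33, edgeR adjusted p = 0.0743). It was called with the replicate number as a block (adjusted p = 0.0188) and without 1w100 replicate 2 (0.0197), within 0.0188 to 0.256 over 11 alternatives. From 1 to 3 weeks on stiff it was 0.29 (SE 0.30, edgeR adjusted p = 0.619).

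Fgf2 was not called between surfaces at any time. At 3 weeks 3w2 was at 6.18 ± 1.76 CPM and 3w100 at 4.59 ± 0.575, a log2 difference of 0.42 (SE 0.30, edgeR adjusted p = 0.868). The switched groups were at 7.24 ± 1.90 CPM in 3w2→2w100 and 6.84 ± 2.40 in 3w100→2w2, near 7.72 ± 1.15 in 5w2 and 7.04 ± 0.805 in 5w100. In order of mean level Fgf2 ran through 1w2, 1w100, 3w100, 3w2, 3w100→2w2, 5w100, 3w2→2w100 and 5w2, and all neighbours overlapped.

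Tgfb1 was the most even member at 1 week and spread out later. It was at 85.3, 92.3 and 89.8 CPM in 1w2 and at 79.8, 87.3 and 81.8 in 1w100. At 3 weeks it was at 103, 157 and 82.2 CPM in 3w2 and at 134, 89.2 and 91.3 in 3w100, so 1 library on each surface stood well above the others. At 5 weeks it was at 130 and 188 CPM in 5w2 and at 156 and 92.1 in 5w100. From 1 to 5 weeks on soft Tgfb1 rose by a log2 fold change of 0.83 (SE 0.27, edgeR adjusted p = 0.0491), which is 1.78-fold, with both 5w2 libraries above all 1w2 libraries. This call was close to the threshold and was kept by 0 of the 5 fits that left out 1 library, with adjusted p from 0.0595 to 0.348, lowest without 5w2 replicate 1 and highest without 5w2 replicate 2. Without 1w2 replicates 1, 2 and 3 it was 0.132, 0.0893 and 0.0924. With the replicate number as a block it was 0.0785.

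The earlier steps for Tgfb1 on soft were 0.35 from 1 to 3 weeks (SE 0.24, edgeR adjusted p = 0.440) and 0.48 from 3 to 5 weeks (SE 0.27, edgeR adjusted p = 0.597). On stiff the difference from 1 to 3 weeks was 0.34 (SE 0.24, edgeR adjusted p = 0.442) and from 1 to 5 weeks 0.58 (SE 0.27, edgeR adjusted p = 0.156). In the 5-week libraries Tgfb1 was at 157 ± 28.1 CPM after soft priming and 119 ± 29.7 after stiff priming, a log2 difference of 0.39 (SE 0.21, edgeR adjusted p = 0.258), and the sets overlapped. In replicate 2 the soft-primed library was the higher of each 5-week pair, 188 against 92.1 and 172 against 98.7 CPM. In replicate 1 it was 130 against 156 and 136 against 131. Between 5w2 and 5w100 the log2 difference was 0.36 (SE 0.30, edgeR adjusted p = 0.600). In order of mean level Tgfb1 ran through 1w100, 1w2, 3w100, 3w2, 3w100→2w2, 5w100, 3w2→2w100 and 5w2, and all neighbours overlapped.

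**Figure D3:**
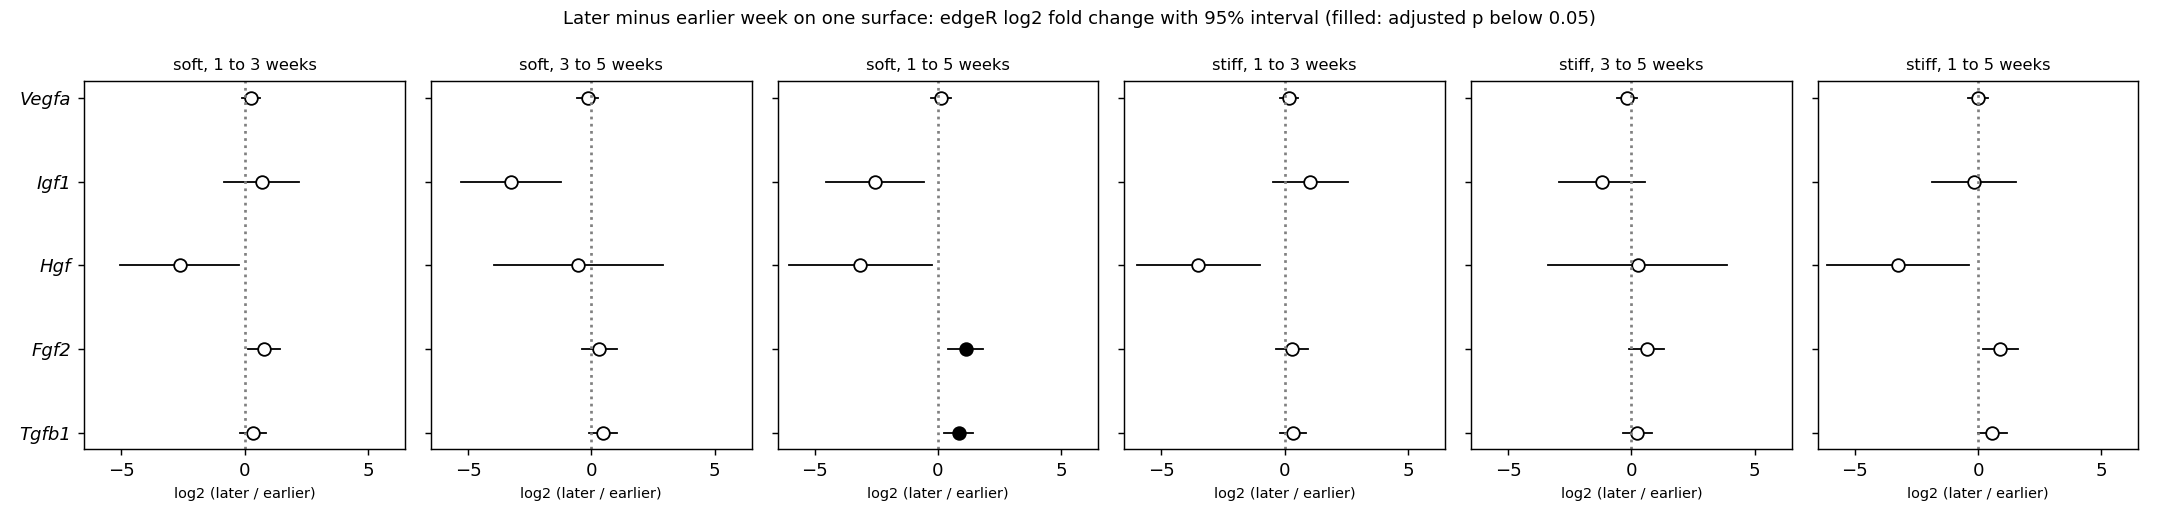
edgeR log2 fold change (x axes, later over earlier week) with its 95% interval for each gene in 6 comparisons of time on 1 surface. Filled points passed an adjusted p below 0.05. Fgf2 at 1.12 and Tgfb1 at 0.83, both from 1 to 5 weeks on soft, are the filled points.

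Vegfa differed little between group means. Its group means lay between 258 ± 18.9 CPM in 1w2 and 311 ± 51.7 in 3w2, and single libraries between 191 in 5w100 replicate 1 and 369 in 3w2 replicate 1. Over the 15 comparisons of groups its log2 fold changes ran from -0.18 to 0.27, and the lowest edgeR adjusted p was 0.402, from 3w2 against 1w2 (0.27, SE 0.17). In order of mean level Vegfa ran through 1w2, 5w100, 1w100, 3w2→2w100, 5w2, 3w100→2w2, 3w100 and 3w2, and all neighbours overlapped. For the priming surface the 95% interval of its log2 difference was -0.30 to 0.35. The 5w100 libraries, at 191 and 327 CPM, were the most different pair within a group. By replicate number the direction at 5 weeks split. The log2 difference of 5w2 minus 5w100 was 0.69 in replicate 1 and -0.38 in replicate 2. That of 3w2→2w100 minus 3w100→2w2 was 0.22 and -0.33.

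Counted over the 5 genes, 2 rose with culture time on soft, Fgf2 and Tgfb1. From 1 to 5 weeks edgeR called 2 of 5 on soft, where it called 15.3% of all tested genes. DESeq2 called 3 of 5 there, Fgf2, Tgfb1 and Igf1, which was lower at 5 weeks, and 17.1% of all genes. In edgeR an unadjusted p below 0.05 was reached by 4 of 5, all but Vegfa, and by 29.7% of all genes. On stiff 0 of 5 were called by edgeR or DESeq2 over the same interval, where edgeR called 17.2% of all genes and DESeq2 18.6%. There 3 of 5, Hgf, Fgf2 and Tgfb1, and 31.5% of all genes had an unadjusted p below 0.05. Called on 1 surface and not on the other does not make these surfaces differ, and the interaction above called none of the 5 genes. From 1 to 3 weeks 0 of 5 were called by edgeR or DESeq2 on either surface. Of all genes edgeR called 8.03% on soft and 8.41% on stiff, and DESeq2 9.88% and 10.3%. Hgf on both surfaces and Fgf2 on soft had an unadjusted p below 0.05 in that interval. So had 22.3% of all genes on soft and 22.7% on stiff. From 3 to 5 weeks edgeR called 0 of 5 genes and 0% of all genes on soft and on stiff. DESeq2 called Igf1 in that interval on soft, where it called 0.777% of all genes, and no member on stiff, where it gave Igf1 no adjusted p. At an unadjusted p below 0.05 edgeR had Igf1 on soft and 0 of 5 on stiff, with 9.37% and 6.33% of all genes.

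Between the surfaces at 1 and at 3 weeks, edgeR and DESeq2 each called 0 of 5 genes, and 0 had an unadjusted p below 0.05. Of all tested genes 0.385% had such a p at 1 week and 6.15% at 3 weeks. edgeR called 0% of all tested genes at both times, and DESeq2 0% at 1 week and 0.0799% at 3 weeks. At 1 week, where the replicate numbers paired the libraries, a replicate block on only these groups called 0.295% of genes and none of the members. The largest of these differences in a gene above the detection limit was Igf1 at 3 weeks, at -0.62 (SE 0.70, edgeR adjusted p = 0.918). In the main fit, which had no block, the 1-week 95% intervals of the log2 difference, soft minus stiff, were as follows. They were -0.38 to 0.36 for Vegfa, -0.42 to 0.62 for Tgfb1, -0.73 to 0.58 for Fgf2 and -1.82 to 1.23 for Igf1. With the block on only these groups the differences were -0.01 (SE 0.05) for Vegfa and 0.11 (SE 0.05) for Tgfb1. For Fgf2 that fit gave -0.05 (SE 0.18) and for Igf1 -0.27 (SE 0.13).

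**Figure D4:**
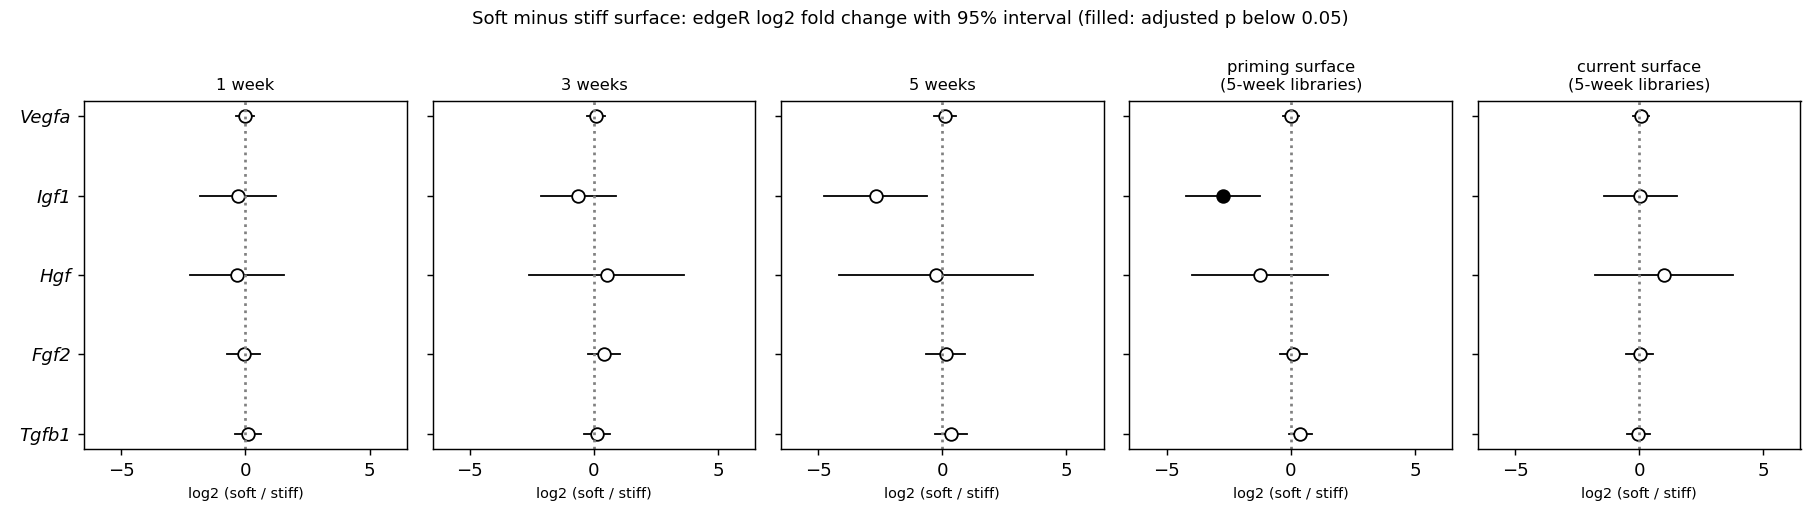
edgeR log2 fold change, soft over stiff (x axes), with its 95% interval for each gene at 1, 3 and 5 weeks and for the priming and the current surface of the 8 libraries sampled at 5 weeks. Igf1 by priming surface, at -2.73, is the filled point, the only 1 with an adjusted p below 0.05, and by current surface it lies at 0.04.

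The genes differed in how far libraries of 1 group lay apart. The SD of log2 CPM within groups was 1.00 for Igf1, and 3.63% of the 14034 genes had a larger one. It was 0.892 for Hgf, 0.379 for Fgf2, 0.323 for Tgfb1 and 0.227 for Vegfa, against a median of 0.227 over all genes. Between the 2 libraries of 5w100 Igf1 differed 6.36-fold, and 1.5% of genes had a wider gap. Between those of 3w100→2w2 it differed 6.11-fold, and 1.01% of genes had a wider gap.

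The gene whose log2 CPM over the 20 libraries was most like that of Igf1, by Pearson's r, was ENSRNOG00000064973 (r = 0.945). For Tgfb1 it was ENSRNOG00000049906 (r = 0.939). Above 0.9 stood 15 genes for Igf1, 11 for Tgfb1, 9 for Fgf2 and 0 each for Hgf and Vegfa. These r are descriptions, since libraries of 1 group and of 1 culture are not independent. By Spearman's rho the Igf1 partner stayed among the 3 most alike, and the Tgfb1 partner did not.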

How the data were processed

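RNA-seq counts of 20 libraries in 8 groups were analysed, with groups and replicate numbers from the sample labels. What the authors deposited is a table of raw counts, 1 row per Ensembl gene. TrimGalore! and FastQC had been used on the reads, HISAT2 for mapping to mRatBN7.2, FeatureCounts for counting and DESeq2 for the authors' tests. Tool versions, strand setting and treatment of multi-mapping reads are not given in the sources used for this text, which leaves overlapping genes uncertain.

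Counts were tested in R 4.3.3 with edgeR 4.0.16 (TMM, filterByExpr with minimum count 10 and total 15, quasi-likelihood test, 1 model of 8 groups, no block). Log2 CPM used a prior count of 2. DESeq2 1.42.0 was an alternative, as were RLE factors, no filter, only the groups compared, the replicate number as a block, and leaving out each library. The scripts were tested on simulated data. All 5 genes were named, with, for each, the most alike genes by Pearson's r, of which 2 identifiers are given. The 5 genes and the lists were chosen with earlier results of these data known.

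The tables used here pair no other Ensembl identifier with a symbol, so the gene symbols rest on the rule that chose them, and 10 fixed lists, among them receptors, binding proteins, pathway targets and markers of stromal and other cell types, gave no value. The cell type was therefore not checked against its markers.

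Same-numbered libraries were checked for pairing by the correlation over genes of their deviations from group means. Between 1w2 and 1w100 r was 0.626, 0.650 and 0.777, between 1w100 and 3w100 it was 0.128, 0.349 and 0.114, between 3w2 and 3w100 it was 0.389, 0.0840 and 0.465, and between 1w2 and 3w2 it was 0.0456, 0.373 and 0.111. With a limit of 0.1 for every r, the numbers paired the libraries in the first 2 of these comparisons. At 5 weeks, in groups of 2 libraries, r was 0.760 between 5w2 and 3w2→2w100 and 0.802 between 5w100 and 3w100→2w2. Between groups of different priming surface it was 0.168 to 0.245. The study describes its replicates as cells of different rats, and not that a number marks 1 rat. If same-numbered libraries share a rat, p-values without the block treat them as independent.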

Additional observations from a re-analysis of the deposited data

Results flagged for a closer look

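Dixon's test at its 95% critical value was applied to the 5 genes in 4 sets of 4 libraries sampled at 5 weeks, by priming and by current surface. Chance marks about 1 set in 20, and of 20 sets it marked 2, both for Igf1. Among the libraries on soft at 5 weeks, 3w100→2w2 replicate 2 stood apart at 17.9 CPM, with the others at 1.25 to 2.92. Among those on stiff, 5w100 replicate 2 stood apart at 15.7 CPM, with the others at 1.45 to 2.46. Both libraries were primed on stiff and carry the same replicate number, and each set mixes both priming surfaces.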

How the results depend on the processing

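Of the 5 genes, DESeq2 called 1 between 5w2 and 5w100, 1 between 5w2 and 3w2 and 1 between 3w100→2w2 and 5w2, where edgeR called 0, Igf1 each time. In 5w2 against 1w2 DESeq2 called 3, Igf1 besides Fgf2 and Tgfb1, and 17.1% of all genes. With the replicate block 1 gene was called in 3w2 against 1w2 (Fgf2), 1 in 3w100 against 1w100 (Hgf) and 2 in 5w100 against 1w100 (Hgf and Fgf2), in place of 0. The block called 12.8%, 13.3% and 22.4% of all tested genes there, against 8.03%, 8.41% and 17.2% without it. In 5w2 against 1w2 it kept Fgf2, lost Tgfb1 and added Hgf. For 5w2 against 1w2 the count fell from 2 to 1 with RLE size factors and with no filter (Fgf2). These fits called 14.9% and 9.02% of all tested genes, against 15.3% in the main fit. With only the groups compared and a replicate block, which called 5.7% of all genes, the count was also 1. There Fgf2 and Tgfb1 were both lost and Igf1 was called. With only the groups compared, where 9.44% of all genes were called, the count stayed 2, with Igf1 and Tgfb1 called and Fgf2 lost. The count also moved in fits without 1 library, as it did for 5w100 against 1w100 and for the priming surface. The share of all genes called in those fits is not given here. A change in the members can therefore not be told from a change in the calls over all genes. For the priming surface the count fell from 1 to 0 with only the groups compared, also with a replicate block, and with summed libraries. With only the groups compared 1.48% of all genes were called for the priming surface, 12.6% with the block added and 0% with summed libraries. The main fit called 9.75%. The Igf1 difference by current surface turned sign in some fits without 1 library. It was -0.87 without 3w100→2w2 replicate 2 and 0.98 without 5w100 replicate 2, each the highest Igf1 library on its current surface at 5 weeks. With priming surface and replicate number as a block it was 0.12, in a fit that called 0.145% of all genes. The cause of these changes was not tested, apart from the smaller number of libraries. The block on the groups compared, the block of priming surface with number, and the sums were chosen after the data were seen. A group left with 1 library was assumed to vary like the others. Between TMM and RLE factors, the median over all genes of a log2 difference moved by at most 0.0175. Hgf, at 0 to 29 counts, was the member limited by depth, and it failed the filter in several fits of only the groups compared.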

Other observations

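Within groups, Igf1 and Tgfb1 ran opposite to each other. In 6 of the 8 groups the library with the highest Igf1 was the one with the lowest Tgfb1. With 2 or 3 libraries in a group, such a match is frequent by chance. Over the 20 libraries the deviations of log2 CPM from the group means had Pearson's r = -0.852 and Spearman's rho = -0.836, and r was -0.829 over the 16 libraries outside 5w100 and 3w100→2w2, where Igf1 varied most. The deviations are a description, since libraries of 1 group share a mean and those of 1 culture are not independent. The pair was picked after the values of all 10 pairs of members were seen. Other pairs also had sizeable r of deviations, 0.684 for Hgf and Fgf2, -0.681 for Vegfa and Tgfb1 and 0.646 for Vegfa and Igf1. The r of pairs over all genes is not given here. At 5 weeks the 2 libraries with Igf1 above 15 CPM, 5w100 replicate 2 and 3w100→2w2 replicate 2, were the 2 lowest for Tgfb1, at 92.1 and 98.7 CPM, and the 2 highest for Vegfa, at 327 and 325 CPM.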
